A study of Danio rerio with 2 samples.

Results

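Slow muscle genes encode the contractile proteins of slow-twitch fibres and the factors that switch these proteins on or off. The set holds 10 genes, listed by name for their known role, with earlier results of these data known. They are the slow myosin heavy chain genes smyhc1, smyhc2 and smyhc3, the slow troponin genes tnnc1b, tnnt1 and tnni1b, the tropomyosin gene tpm2, the myosin-binding protein C gene mybpc1, and the regulators prdm1a and sox6. Through the RefSeq accession of each probe, 19 of the 43603 probes of the array were assigned to them, and all 10 genes had a probe. A further 18429 probes carry no symbol here, and some of them may belong to these genes.

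The tested fish were whole wild-type zebrafish larvae swim-trained from 5 to 10 days after fertilisation, every day in sessions of 3 hours. The reference fish were control larvae of the same age, 10 days, and of the same Zod2 background, a cross of Wageningen and Tubingen wild types. RNA of 10 fish was pooled per condition, 400 ng from each, and the same 2 pools were hybridised on 2 two-colour arrays with the dyes exchanged, the trained pool carrying Cy5 on array 1 and Cy3 on array 2. The arrays are thus a technical dye swap of 1 pool per condition, no spread between fish can be had, and no p-value is given. Median spot signals lay between 136 and 178.5 scanner units in the 4 channels, and 71.3% to 84.2% of spots in a channel were well above background. Across the 30886 probes measured on both arrays, Pearson's r between their ratios was -0.04. For the deposited ratios of the same probes, signed by the titles, it was 0.11. Both are given as a description, and directions rest on the sample titles and channel labels. The series' design text names the same dye orientation for both arrays, while the deposited value table turns the sign of array 2 as the titles imply. Values follow the titles and labels, and the counts that the other orientation gives are set beside them.

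In the zebrafish embryo, Hedgehog signals from the midline turn on prdm1a in the cells next to the notochord. The Prdm1a protein represses sox6, and Sox6 in turn represses slow genes in the cells that become fast muscle. Slow fibres then form a thin superficial layer of the trunk that powers sustained swimming, while the deeper fast fibres serve bursts. In mammals, endurance activity shifts fibres towards slow isoforms through calcium signalling, which is the question that training larvae raises for these genes.

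No slow muscle gene differed by at least 1.5-fold between trained and control larvae on both arrays. The largest mean differences were 1.18-fold higher in the trained pool for tnnt1 and 0.841-fold for sox6. Of the 10 genes, each taken at its brightest probe, tnnt1 and prdm1a were above 0 on both arrays, none was below 0 on both, and 8 changed sign between the arrays. Over all 11121 measured genes 0.638% passed the 1.5-fold rule as higher and 0.054% as lower, or 0.692% in all, so a count of 0 among 10 lies near what the whole array gave. Shares of all genes were 24.3% higher on both arrays, 22.1% lower on both and 53.6% opposite. The median log2 ratio of the 10 genes was 0.07, with -0.07 on array 1 and 0.16 on array 2. All measured genes had a median of 0.00, with 0.00 on array 1 and 0.02 on array 2. Counted by probe, 0 of 19 passed, against 0.476% of all measured probes as higher and 0.0421% as lower, 0.518% in all. All 19 probes were well above background in both pools on both arrays, against 70.8% of all probes, so every slow contractile marker was detected in trained and control larvae alike. With the sign of array 2 turned, as the design text would have it, 0 of 10 genes passed again, against 0.575% of all measured genes. In that orientation 6 genes were lower in the trained pool on both arrays, 2 were higher and 2 were opposite, against 28.2% lower and 25.3% higher of all measured genes. The median of the 10 genes was then -0.11, and that of all measured genes -0.02. The means of smyhc1, tnni1b and prdm1a changed sign, and those of the other slow muscle genes kept theirs. The sign of the median, and which genes agree between the arrays, thus depend on which orientation is right. In RNA of whole larvae, fewer cells of a type and less RNA per cell cannot be told apart.

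**Figure D1:**
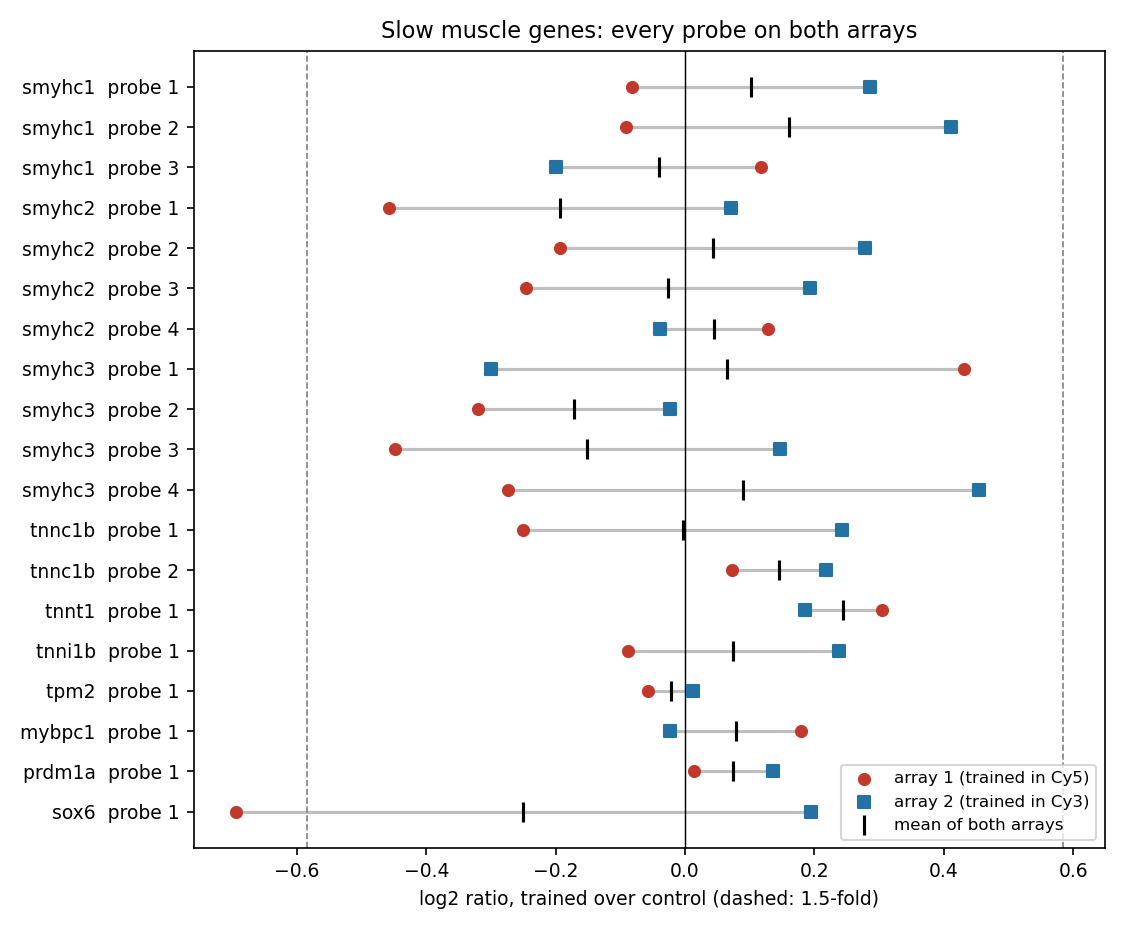
Log2 ratio of trained over control (horizontal axis) for each of the 19 probes, numbered within a gene from bright to dim. Circles are array 1, squares array 2 and bars their mean, and dashed lines mark 1.5-fold. The line joining the arrays crosses 0 for 15 probes and lies wholly above it for tnnt1, prdm1a and the second probe of tnnc1b.

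The slow myosin heavy chain genes form the motor of the thick filament. The gene smyhc1 supplies the main myosin of embryonic slow fibres, and smyhc2 and smyhc3 are used by subsets of slow fibres. They follow one another in the RefSeq annotation with 0 protein-coding genes between them. Probe sequences were not used here, and whether a probe detects more than 1 of these related transcripts was not tested.

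At its brightest probe (A_15_P632491), smyhc1 had normalised intensities of 26016 and 22873 in the trained pool on arrays 1 and 2, against 27526 and 18751 in the control pool. The trained pool was thus slightly dimmer on array 1 and brighter on array 2, with log2 ratios of -0.08 and 0.29 and a mean of 0.10. A second smyhc1 probe gave 6159 and 6354 in the trained pool, against 6559 and 4777 in the control pool, the same pattern with a mean log2 ratio of 0.16. The third probe went the other way on each array, with 2114 and 1680 in the trained pool, against 1948 and 1929 in the control pool. Its mean was -0.04, and the SD between the means of the 3 probes was 0.10, as large as the gene's own ratio.

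The brightest probe of smyhc2 (A_15_P626641) had intensities of 4464 and 5421 in the trained pool, against 6129 and 5159 in the control pool. The pools differed on array 1, with a log2 ratio of -0.46, and lay close together on array 2, with 0.07. Its mean of -0.19 stood at percentile 11.9 of all measured genes, but it was not borne out by the other probes. Their mean log2 ratios were 0.04, -0.03 and 0.04, and all 4 smyhc2 probes were opposite in sign on the arrays. The SD between the 4 probes was 0.11.

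The brightest probe of smyhc3 (A_15_P157206) had 89776 and 67495 in the trained pool, against 66590 and 83117 in the control pool. The trained pool was the brighter one on array 1, at a log2 ratio of 0.43, and the dimmer one on array 2, at -0.30, which left a mean of 0.07. The dimmest smyhc3 probe (A_15_P443326) did the reverse, with 188.1 and 221.3 in the trained pool, against 227.4 and 161.5 in the control pool. Its log2 ratios were -0.27 and 0.45, with a mean of 0.09. Between these lay a probe at 850.9 and 1071 in the trained pool, against 1161 and 967.7 in the control pool. The remaining probe (A_15_P635961) was the 1 member probe that was lower on both arrays, with 32952 and 38870 in the trained pool, against 41117 and 39488 in the control pool. On array 2 that difference was only -0.02 on the log2 scale, and the mean was -0.17. The 4 probes had an SD of 0.14 between their means, so no direction can be read for smyhc3.

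Troponin is the calcium switch of the thin filament: troponin C binds calcium, troponin I blocks the motor, and troponin T ties the complex to tropomyosin. The slow troponin T gene tnnt1 had intensities of 1166 and 909.9 in the trained pool, against 944.1 and 800.4 in the control pool. It was higher in the trained pool on both arrays, with log2 ratios of 0.30 and 0.18 and a mean of 0.24, the highest of the 19 probes and at percentile 90.8 of all measured genes. The gap between its arrays, 0.12, was smaller than its mean ratio. Only 1 probe was assigned to this gene, so no second probe could be set beside it, and its ratio is below 1.5-fold. With array 2 turned, tnnt1 stood at 0.30 and -0.18, with a mean of 0.06, and the highest of the 19 probes was the brightest one of smyhc3 at 0.37.

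For the slow troponin C gene tnnc1b, the brighter probe (A_15_P108824) had 17489 and 14236 in the trained pool, against 20805 and 12027 in the control pool. Log2 ratios of -0.25 and 0.24 cancelled to a mean of 0.00. A dimmer probe (A_15_P748636) was higher on both arrays, with 1290 and 1142 in the trained pool, against 1226 and 981.9 in the control pool, and a mean of 0.15. The slow troponin I gene tnni1b, which the zebrafish heart uses too, had 235.8 and 261.8 in the trained pool, against 250.7 and 222.0 in the control pool. Its log2 ratios were -0.09 and 0.24, with a mean of 0.07.

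Tropomyosin lies along the thin filament and covers the myosin binding sites at rest. The intensities of tpm2 were 34172 and 35019 in the trained pool, against 35543 and 34724 in the control pool, with log2 ratios of -0.06 and 0.01. Its arrays lay only 0.07 apart, the smallest gap of the 19 probes. Myosin-binding protein C braces the thick filament, and its slow gene mybpc1 had 245.7 and 182.2 in the trained pool, against 217.0 and 185.0 in the control pool. The log2 ratio was 0.18 on array 1 and -0.02 on array 2, with a mean of 0.08.

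Of the regulators, prdm1a encodes the zinc finger repressor Prdm1a (Blimp1). It had intensities of 728.6 and 720.1 in the trained pool, against 721.5 and 655.6 in the control pool. Both log2 ratios were above 0, at 0.01 and 0.14, with a mean of 0.07. Its array 1 ratio was -0.13 under median centring and -0.01 in the deposited ratios, so the shared sign was lost there. The repressor gene sox6 had 506.1 and 653.4 in the trained pool, against 819.2 and 570.7 in the control pool. On array 1 it stood at -0.69, which is 1.62-fold lower in the trained pool and past the 1.5-fold line, while on array 2 it was higher, at 0.20. The mean of -0.25 stood at percentile 6.18, and the gap between the arrays, 0.89, was the widest of the 19 probes. Of all measured genes, 1.79% were at least 1.5-fold lower on array 1 alone, and sox6 was the 1 slow muscle gene among them. Array 1 therefore decides the mean of sox6, and no direction is given for it. With array 2 turned, sox6 was lower in the trained pool on both arrays, at -0.69 and -0.20, without passing 1.5-fold on array 2.

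Most slow muscle probes disagreed between the arrays in the same way. Of the 19 probes, 3 were higher on both arrays and 1 was lower on both, against 22.9% and 23.2% of all measured probes. A further 11 were lower in the trained pool on array 1 and higher on array 2, against 27.6% of all measured probes, and 4 did the reverse. In all, 15 of 19 were opposite in sign, against 53.9% of all measured probes. By gene, 6 of 10 were lower on array 1 and higher on array 2, against 28.2% of all measured genes. By the sample titles, those 11 probes were relatively brighter in Cy3 on both arrays, whichever pool carried it. With array 2 turned, the same 11 would be lower in the trained pool on both arrays, 4 higher and 4 opposite, against 27.6% lower and 26.3% higher of all measured probes. The dye component, the mean log2 ratio of Cy5 over Cy3, had a median of -0.16 over the 19 probes and of -0.01 over all measured probes. It was among the lowest 20% of measured probes for 10 of the 19. The gap between the arrays had a median of 0.37 over slow muscle probes and of 0.23 over all, so differences of the sizes above were not resolved for most of these genes. Probes of 1 gene share a target and are not independent, and what moves the probes with the dye was not tested.

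**Figure D2:**
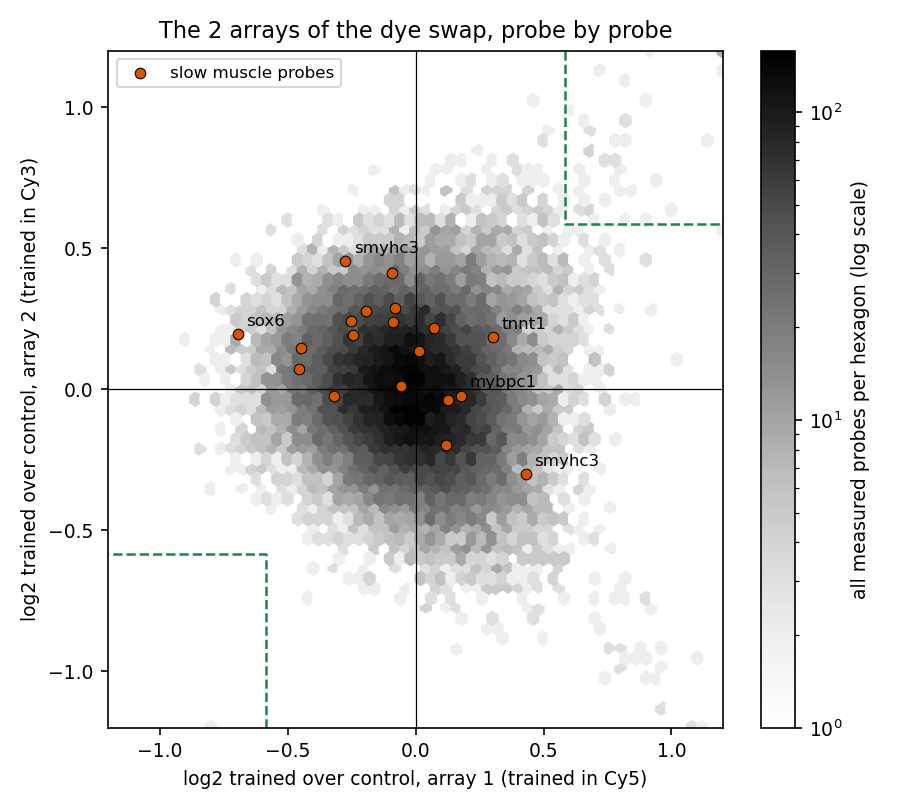
Log2 ratio of trained over control on array 1 (horizontal) against array 2 (vertical). Grey hexagons count all 30886 measured probes, with ratios beyond the axes drawn at their edge, and orange points are the 19 slow muscle probes. The dashed corners hold probes at least 1.5-fold apart on both arrays, and no orange point lies in them, while 11 lie in the upper left quadrant.

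The ratios that the scanner software deposited gave a second reading of the same spots, with an error for each spot of 0.20 to 0.22 on the log2 scale for these probes. In the deposited ratios 3 of 19 probes were higher on both arrays, none was lower on both and 16 were opposite, against 23.3%, 27.1% and 49.6% of all measured probes. The 3 were the probes of tnnt1 and tnni1b and the third smyhc1 probe. For tnnt1 the deposited log2 ratios were 0.32 and 0.15, close to the rebuilt ones, and the first exceeded its error of 0.21. For tnni1b they were 0.37 and 0.26, each above its error of 0.21, with a mean of 0.31 in place of 0.07. Its array 1 ratio thus turned sign with the processing. Over the 19 probes, 9 lay within the deposited error on both arrays, 6 exceeded it on 1 array and 4 on both, of which only tnni1b had the same sign on the arrays. The same counts over all measured probes were not made, so no reading is drawn from these. For tpm2 the deposited ratios were -0.27 and 0.30, where the rebuilt ones lay near 0. For mybpc1 they were 0.17 and -0.32, with a mean of -0.08 in place of 0.08.

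**Figure D3:**
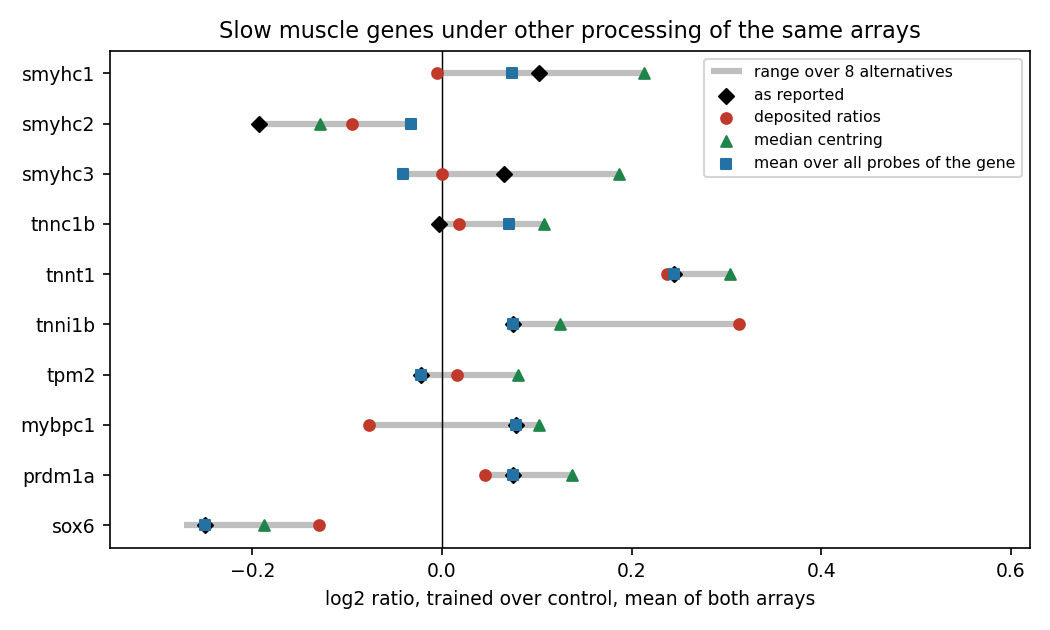
Mean log2 ratio of trained over control (horizontal axis) for each gene under the processing reported here (diamonds) and under alternatives. Grey bars span 8 alternatives run on both arrays. The bars of tnnt1, tnni1b and prdm1a lie above 0 and those of smyhc2 and sox6 below it, and the other 5 reach both sides.

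Slow and fast fibres build the same sarcomere from different isoforms, so each slow contractile gene was set against its fast counterparts on the same arrays. Of 19 fast counterparts with a current symbol 15 were measured. None passed the 1.5-fold rule. Of the 15, 3 were higher on both arrays, 1 was lower and 11 were opposite, against 24.3%, 22.1% and 53.6% of all measured genes. The median of the 15 was 0.03, with 0.08 on array 1 and 0.18 on array 2. Besides tnnt3a, the genes with the same sign on both arrays included the fast troponin C gene tnnc2.1 at 0.24 and the fast troponin I gene tnni2b.1 at 0.32. The median of all 10 slow muscle genes, the regulators prdm1a and sox6 included, was also set against that of the fast genes. Slow minus fast was -0.15 on array 1 and -0.02 on array 2, so the slow median was the lower one on both. The medians of the gene means differed by 0.04. That value is not the mean of the array differences, and no direction is drawn from it. For myosin heavy chain the slow genes averaged -0.01 and the fast genes myhz1.1, myhz1.2 and myhz2 averaged -0.06, and the difference was -0.13 on array 1 and 0.23 on array 2. Tropomyosin differed by 0.17 and myosin-binding protein C by 0.12, each below 0 on array 1 and above 0 on array 2. Troponin I differed by -0.04, with -0.09 on array 1 and 0.00 on array 2. For troponin C the slow gene stood below the fast genes by -0.16, with -0.31 on array 1 and -0.01 on array 2.

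Troponin T was the 1 protein of 6 whose slow isoform stood above its fast isoforms on both arrays, a comparison singled out after its values were seen. The slow gene tnnt1 exceeded the mean of the fast genes tnnt3a and tnnt3b by 0.40 on array 1 and 0.61 on array 2, a mean difference of 0.51 or 1.42-fold. The fast gene tnnt3a had 8255 and 8964 in the trained pool, against 11148 and 10167 in the control pool, with log2 ratios of -0.43 and -0.18. The brightest probe of tnnt3b stood at 0.24 and -0.68, and its 4 probes had means of -0.22, -0.26, -0.02 and 0.08. The last of these was at -0.04 on array 1 and 0.20 on array 2, where it lay above tnnt1 at 0.18. Under alternatives on both arrays the difference stayed between 0.42 and 0.52, with 0.03 on array 1 alone under median centring. With array 2 turned it was -0.11, so its direction rests on the sample titles and labels.

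**Figure D4:**
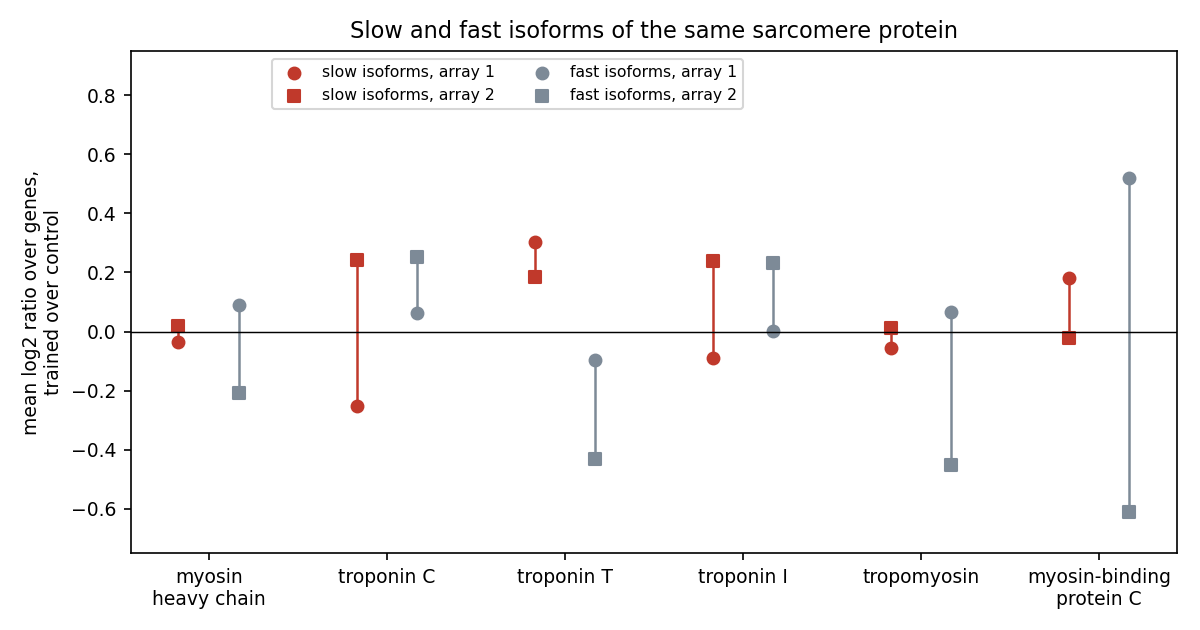
Log2 ratio of trained over control (vertical axis), averaged over the slow isoform genes (red, left of each pair) and the fast isoform genes (grey, right) of 6 sarcomere proteins. Circles are array 1 and squares array 2. Slow lies above fast on both arrays for troponin T, while fast myosin-binding protein C spans 0.52 on array 1 and -0.61 on array 2.

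No further gene of slow and oxidative fibres passed the rule. Of 8 measured, 4 were higher on both arrays, 1 was lower and 3 were opposite, against 24.3%, 22.1% and 53.6% of all measured genes. The median of the 8 was 0.12. The oxygen store gene mb, myoglobin, had 6676 and 4903 in the trained pool, against 5359 and 4340 in the control pool, a mean log2 ratio of 0.25. Of its other measured probes, 1 stood at 0.25 and 1, at 0.05, was opposite on the arrays. The Z-disc protein gene myoz2a stood at 0.19, with 861.6 and 877.6 in the trained pool, against 811.9 and 715.3 in the control pool, and its relative myoz2b stood at -0.04. The median of all measured genes was 0.00.

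Heart muscle shares several proteins with slow fibres, and whole larvae contain both. Of 7 measured heart counterparts none passed the rule. On both arrays 3 were higher, 1 was lower and 3 were opposite, against 24.3%, 22.1% and 53.6% of all measured genes. The median of the 7 was 0.01. The ventricular myosin gene myh7l had the highest mean, 0.49, with 1316 and 951.1 in the trained pool, against 844.0 and 755.1 in the control pool. Its array 1 ratio of 0.64 was past 1.5-fold and its array 2 ratio of 0.33 was not. All 6 of its probes had means above 0, from 0.16 to 0.49, but not all had the same sign on both arrays. A probe at 0.76 and -0.12 and another at -0.05 and 0.37 were opposite. Of the other heart myosin genes, myh7 stood at 0.08 and -0.07, with a mean of 0.01, and myh6 had a mean of 0.14. Cardiac troponin T, tnnt2a, stood at 0.37 and 0.31, and the tropomyosin gene tpm4a at -0.01 and -0.07. The part of heart RNA in the slow muscle ratios was not tested.

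Hedgehog signalling, which sets up slow fibres in the embryo, was listed with 19 genes. Of 16 measured genes none passed the rule. On both arrays 2 were higher, 2 were lower and 12 were opposite, against 24.3%, 22.1% and 53.6% of all measured genes. The median of the 16 was -0.02. The ligand genes shha and shhb stood at 0.31 and 0.11, and other probes of shha gave 0.06 and -0.21. The kinesin gene kif7, which relays the signal in the cilium, stood at -0.25, and disp1, which releases the ligand, at -0.06. In mammals calcineurin and its partners carry calcium signals to slow genes. A list of calcineurin and activity signalling held 30 genes, of which 17 had a probe and 15 were measured. It mixes calcineurin subunits with regulators such as the rcan genes and with other factors such as hdac4 and esrra. None of the 15 passed. On both arrays 2 were higher, 2 were lower and 11 were opposite, against the same shares of all measured genes. The median of the 15 was -0.04. The transcription factor gene mef2aa stood at 0.18 and the calcineurin regulator rcan3 at 0.06. The calcineurin subunit ppp3ca stood at -0.04 and the nuclear receptor esrra at -0.05. In the deposited ratios the means of mef2aa (-0.08) and ppp3ca (0.06) had the other sign, while rcan3 (0.11) and esrra (-0.24) kept theirs. There mef2aa and rcan3 were opposite on the arrays.

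Factors that favour fast fibre differentiation included 6 genes, of which none passed. Among them 3 were higher on both arrays and 3 were opposite, against 24.3% and 53.6% of all measured genes. The median of the 6 was 0.08, with six4a at 0.14 and pbx2 at 0.10. None of the 6 lists beside the slow muscle genes held a gene past 1.5-fold on both arrays, against 0.692% of all measured genes. Outside the calcineurin list, kif7, pbx2, tpm4a and myoz2b were opposite on the arrays in the deposited ratios. The mean of myoz2b was then 0.09, of the other sign. The remaining genes named from these lists for a shared sign, tnni2b.1 among them, kept it there.

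**Figure D5:**
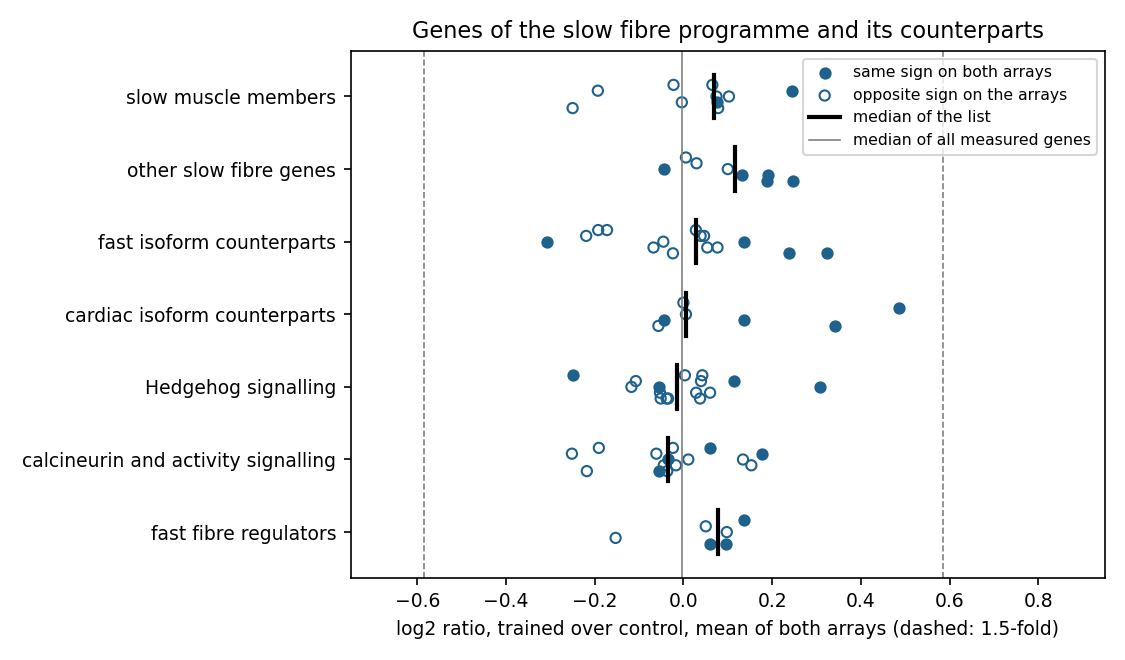
Mean log2 ratio of trained over control (horizontal axis) for each measured gene of 7 lists. Filled points have the same sign on both arrays and open points do not, black bars are list medians, and dashed lines mark 1.5-fold. All points lie inside the dashed lines, and list medians run from -0.04 to 0.12.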

How the data were processed

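Per the file headers, the authors' deposited scanner files held median foreground and background intensity of each spot in both channels, 0 or 1 flags (another unit, in the deposited files), and a log10 ratio of Cy5 over Cy3 with its error. The software was Agilent Feature Extraction 10.5.1.1, as the submitters' processing notes state. The deposited value table equals those log10 ratios with the sign of array 2 turned. Here ratios were rebuilt with limma 3.58.1 in R 4.3.3, by normexp with an offset of 50 on the median signals and loess within each array, and are given as log2 of trained over control. Normalised intensities include the offset and are not compared between probes. The 13 spots flagged as outliers were left out, and no spot was saturated. Spots of a probe were averaged, then the arrays. A probe counted as measured when well above background in both channels of both arrays. Symbols came from matching 25171 probes to RefSeq accessions (GRCz12tu), and 18429 carry no symbol here. Probes were designed against another genome build, and coordinates are left out. A gene was taken at its brightest measured probe.

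With 1 pool per condition, a size rule replaced a test: a probe or gene had to reach 1.5-fold on each array with the same sign. It was tested on simulated data, with differences above 1.5-fold only. The simulated dye component was drawn with a smaller spread than on these arrays. How often the rule misses a difference on these arrays, or one near 1.5-fold, was not tested. All members are named with every probe matched to them. From the other lists the text takes the 2 highest and 2 lowest genes of the same sign on both arrays. Fast genes of the slow and fast pairs and the heart myosin genes myh6 and myh7 are named besides. The members and lists were chosen with earlier results of these data known. Python 3.11.15, numpy 2.4.6 and pandas 2.3.3 were used. Intervals between fish cannot be had, and the number of arrays limits the precision.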

Additional observations from a re-analysis of the deposited data

How the results depend on the processing

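No slow muscle gene passed 1.5-fold on both arrays under any of the alternatives run on both arrays. None passed with thresholds of 1.2-fold or 2-fold either. The share of all measured genes at those other thresholds was not counted, so no reading is drawn from them. With array 1 or array 2 alone the count was 1 (sox6, on array 1) and 0. Their median log2 ratio ran from 0.01 under the deposited ratios to 0.12 under median centring, and from -0.07 to 0.16 on the single arrays. The median of fast counterparts was 0.11 under median centring, which also moved the median of all genes to -0.08 on array 1, 0.18 on array 2 and 0.04 on their mean. It was 0.082 on array 1 alone and 0.18 on array 2 alone. The slow minus fast difference of troponin T, a setting chosen after seeing the data, was 0.40 to 0.61 on the single arrays. With the sign of array 2 turned, an alternative also chosen after seeing the data, the medians were -0.11 for slow muscle genes and -0.054 for fast counterparts, and the troponin T difference was -0.11. Over all 30886 measured probes, those without a symbol included, 160 passed. The count was 265 with a normexp offset of 0, 342 under the deposited ratios and 342 in the series value table. It was 1330 at 1.2-fold, 18 at 2-fold, and 999 to 1054 on a single array. With array 2 turned, 116 passed. The cause of these shifts was not tested, except that a lower threshold or a single array sets a weaker rule. The gene tnnt1 was higher on both arrays in all 8 alternatives, with means of 0.24 to 0.30, and sox6 was opposite in all 8. For prdm1a, 5 of the 8 gave the same sign on both arrays. These 3 genes have 1 probe each, so the dim-probe alternatives and the mean over probes repeat their main values by construction. Among the rest, prdm1a kept the shared sign without background correction and with a normexp offset of 0. It lost that sign under median centring and in the deposited ratios. The deposited ratios and the value table hold the same values, so they are not separate evidence. No paired analysis was possible because both hybridisations used the same 2 pools, with no second sample of a condition to pair. The dim-probe filter did not touch these genes, since every probe of theirs passed it.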
